A study of Mus musculus with 3 samples.

Results

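The genes described here encode the enzymes of glycolysis, the pentose phosphate pathway and the entry of pyruvate into mitochondria, together with the oxygen-sensing factors that regulate many of them. They are 35 named genes of 18193 genes on the array. Each was read from its brightest probe set among those annotated to 1 gene. Of the 35 genes, 31 had such a probe set, and all 31 stood above the floor of 25.6 intensity units on every array. Gapdh had only probe sets annotated to several genes, and Gpi1, Eno1 and G6pdx had none among those named here, so these 4 genes were not analysed here.

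The RNA came from mouse A2.snail embryonic stem cells, which express the transcription factor Snail when doxycycline is given, differentiated for 3 days as embryoid bodies in medium with 10% FCS and DKK1, a secreted Wnt inhibitor. There were 3 groups with 1 Affymetrix array each. Flk1+ cells and Snail-induced Flk1- cells were sorted from cultures that received doxycycline at 250 ng/mL from day 2, and untreated Flk1- cells from cultures without it; all Flk1+ cells below are thus Snail-induced. Flk1 is the VEGF receptor encoded by Kdr and marks mesoderm that can form endothelium and blood. No doxycycline-treated cells without the Snail gene and no untreated Flk1+ cells were analysed here, so Snail and doxycycline cannot be told apart, and in the comparison of Flk1+ with untreated Flk1- cells neither can induction and the Flk1 gate.

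Glycolysis splits glucose to pyruvate in the cytoplasm, and lactate dehydrogenase turns pyruvate into lactate or back. The pentose phosphate pathway branches off at glucose 6-phosphate and yields NADPH and ribose 5-phosphate. When oxygen is low, the hypoxia-inducible factors, no longer marked for destruction by the prolyl hydroxylases of the Egln family, activate glycolytic genes, and pluripotent cells are known for high glycolytic flux.

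There were no replicate arrays, so no difference has a replicate check, no error can be given and no test was made. Differences are on the log2(intensity + 9.53) scale, which understates those of dim genes, and folds are 2 to the power of that difference. Array medians were 44.6 in Flk1+, 42.4 in Snail-induced Flk1- and 42.7 in untreated Flk1- cells. Intensity compares the same probe set between arrays and not 1 gene with another. The only Snai1 probe set lay at 19.8 in Flk1+, 13.1 in Snail-induced Flk1- and 29.1 in untreated Flk1- cells, near or under the floor, and checks nothing about the induction. Of 8 markers of Flk1+ mesoderm and endothelial precursors, 7 were at least 2-fold higher in Flk1+ than in Snail-induced Flk1- cells, where values under the floor count as the floor, and Pecam1 was at least 1.75-fold higher, with Kdr at 404 in Flk1+, 9.73 in Snail-induced Flk1- and 10.5 in untreated Flk1- cells. The 6 pluripotency markers summed to 16637 in Flk1+, 31598 in Snail-induced Flk1- and 29348 in untreated Flk1- cells. Of the 6, 3 were at least 2-fold lower in Flk1+ than in Snail-induced Flk1- cells (Sox2, Nanog and Dppa5a), against 4.89% of all genes. Nanog, a core pluripotency factor, differed most, at 203 in Flk1+, 1584 in Snail-induced Flk1- and 1767 in untreated Flk1- cells. Tdgf1 hardly differed, at 6488 in Flk1+, 6683 in Snail-induced Flk1- and 6312 in untreated Flk1- cells. The part that this difference in pluripotency markers has in the results below was not tested. The 6 fibroblast markers summed to 299 in Flk1+, 567 in Snail-induced Flk1- and 386 in untreated Flk1- cells, with Col1a1 and Postn under the floor everywhere. Of the 4 measured, 1 was higher and 3 were lower in Flk1+ than in Snail-induced Flk1- cells. Among the 3 lower, Lum was under the floor on both of those arrays, at 2.57 in Flk1+ and 22.1 in Snail-induced Flk1- cells. Dcn stood at 58.6 in Flk1+, 276 in Snail-induced Flk1- and 111 in untreated Flk1- cells. Col1a2 was the higher one, at 132 in Flk1+, 93.5 in Snail-induced Flk1- and 76.7 in untreated Flk1- cells. Of 4 erythroid markers, only Hbb-bh1 reached the floor, at 30.4 in Flk1+ cells.

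Of the 31 genes, 22 (71.0%) lay within 1.5-fold in every comparison, as did 59.8% of all 13969 measured genes and 65.5% of the 11970 that, like these 31, stood at or above the floor on every array. Nothing is read from these shares about the pathway as a whole. The 22 genes had differences from -0.41 to 0.41 between Flk1+ and Snail-induced Flk1- cells, by their brightest probe sets. Other measured probe sets of Hif1a, Tpi1 and Pfkp passed 1.5-fold in at least 1 comparison. The 9 that went past 1.5-fold in at least 1 comparison were the isoforms Aldoc, Ldhb, Pfkm, Eno2 and Eno3, the pentose phosphate genes Taldo1 and Rpia, the hypoxia-inducible factor gene Epas1 and the prolyl hydroxylase gene Egln3. Since RNA of a whole sorted population was measured, fewer cells that express a gene and less RNA per cell cannot be told apart.

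**Figure D1:**
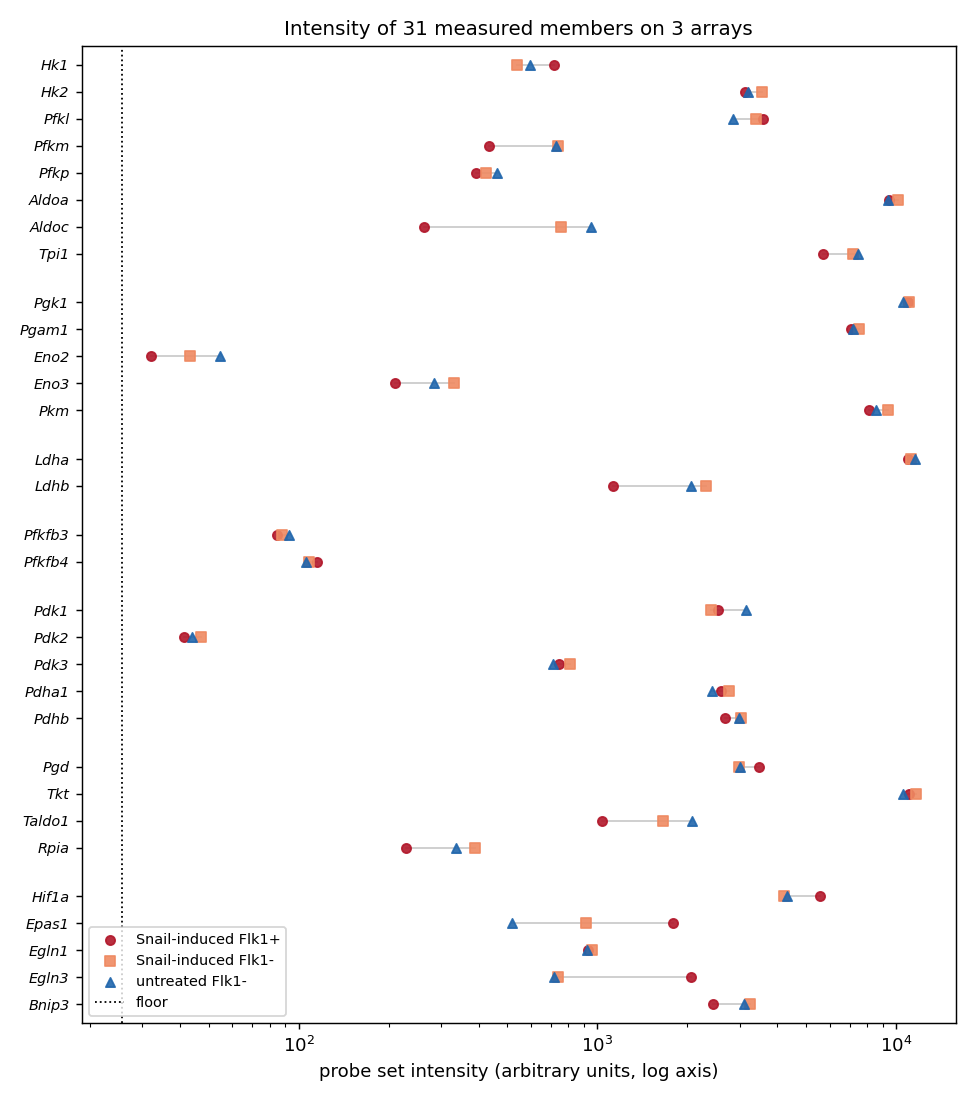
Intensity of the 31 genes on the 3 arrays (log axis, 1 probe set per gene, gaps between functional groups, dotted line at the floor of 25.6). The markers of most genes overlap or nearly so; Aldoc, Ldhb and Taldo1 are lowest and Epas1 and Egln3 highest in Flk1+ cells.

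Among the genes of the first part of glycolysis, the steps from glucose to triose phosphates, the aldolases parted. Aldoa and Aldoc encode isoforms of the enzyme that cleaves fructose 1,6-bisphosphate; Aldoa is the widespread form and Aldoc the form best known from brain. Aldoc stood at 263 in Flk1+, 756 in Snail-induced Flk1- and 949 in untreated Flk1- cells. It was thus lowest in Flk1+ cells, 2.81-fold lower than in Snail-induced Flk1- and 3.51-fold lower than in untreated Flk1- cells. Of 13969 measured genes, 1.95% lay further down in the first of these comparisons and 2.18% in the second. Aldoa stood at 9450 in Flk1+, 10158 in Snail-induced Flk1- and 9356 in untreated Flk1- cells, within 1.09-fold throughout by its brightest probe set. The Aldoc values rest on 1 probe set, since the other was under the floor on every array.

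The phosphofructokinases, which catalyse the committed step of glycolysis, also differed by isoform. Pfkm, the muscle form, stood at 433 in Flk1+, 735 in Snail-induced Flk1- and 729 in untreated Flk1- cells. It was 1.68-fold lower in Flk1+ than in Snail-induced Flk1- cells, and 1.67-fold lower than in untreated Flk1- cells. Pfkl, the liver form, stood at 3583 in Flk1+, 3400 in Snail-induced Flk1- and 2843 in untreated Flk1- cells. Pfkp, the platelet form, stood at 393 in Flk1+, 423 in Snail-induced Flk1- and 460 in untreated Flk1- cells. By their brightest probe sets, the largest fold of either was 1.26, for Pfkl in Flk1+ against untreated Flk1- cells. For Pfkp the 3 measured probe sets gave differences from -0.63 to -0.10 between Flk1+ and Snail-induced Flk1- cells. Against untreated Flk1- cells they gave -0.66 to -0.22. Its brightest probe set shows the smallest difference in both, so how far Pfkp parts from Pfkm depends on the probe set.

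The hexokinases, which trap glucose in the cell by phosphorylating it, stayed within 1.33-fold. Hk2, the insulin-responsive and growth-associated form, stood at 3128 in Flk1+, 3555 in Snail-induced Flk1- and 3200 in untreated Flk1- cells. Hk1, the constitutive form, stood at 718 in Flk1+, 539 in Snail-induced Flk1- and 597 in untreated Flk1- cells, 1.33-fold higher in Flk1+ than in Snail-induced Flk1- cells. Its dimmer probe set gave a difference of -0.09 for that comparison. Triose phosphate isomerase, Tpi1, was lower in Flk1+ cells in each of its 3 probe sets, with differences from -0.59 to -0.33 against Snail-induced Flk1- cells; the brightest gave 5698 in Flk1+, 7186 in Snail-induced Flk1- and 7458 in untreated Flk1- cells.

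In the second part of glycolysis, which yields ATP and pyruvate, Pgk1, Pgam1 and Pkm each lay close together on the 3 arrays. The tissue-restricted enolases were lowest in Flk1+ cells. Gapdh and Eno1 were not analysed, so Eno2 and Eno3 have no Eno1 value beside them. Phosphoglycerate kinase Pgk1 stood at 10995 in Flk1+, 11002 in Snail-induced Flk1- and 10511 in untreated Flk1- cells. Phosphoglycerate mutase Pgam1 stood at 7055 in Flk1+, 7518 in Snail-induced Flk1- and 7197 in untreated Flk1- cells. Pyruvate kinase Pkm, the last enzyme of the pathway, stood at 8132 in Flk1+, 9417 in Snail-induced Flk1- and 8542 in untreated Flk1- cells. No fold of these genes was above 1.16 by their brightest probe sets. The splice forms of Pkm were not separated by its 1 probe set. Eno3, the muscle enolase, stood at 210 in Flk1+, 330 in Snail-induced Flk1- and 284 in untreated Flk1- cells, which is 1.55-fold lower in Flk1+ than in Snail-induced Flk1- cells. Eno2, the neuronal enolase, stood at 32.1 in Flk1+, 43.3 in Snail-induced Flk1- and 54.7 in untreated Flk1- cells, near the floor, and was 1.54-fold lower in Flk1+ than in untreated Flk1- cells. That fold was 1.39 with the offset at the 40th percentile, and the gene was not measured with the floor at the 60th, so its place among the 9 genes is not settled.

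Lactate dehydrogenase is a tetramer of subunits encoded by Ldha and Ldhb; Ldha favours making lactate from pyruvate and Ldhb the reverse. Ldhb stood at 1127 in Flk1+, 2307 in Snail-induced Flk1- and 2063 in untreated Flk1- cells. It was 2.04-fold lower in Flk1+ than in Snail-induced Flk1- cells, just past the 2-fold mark, and 1.82-fold lower than in untreated Flk1- cells. All 4 of its probe sets showed this, with differences from -1.11 to -1.03 against Snail-induced Flk1- cells. Ldha stood at 10978 in Flk1+, 11253 in Snail-induced Flk1- and 11574 in untreated Flk1- cells, within 1.05-fold.

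**Figure D2:**
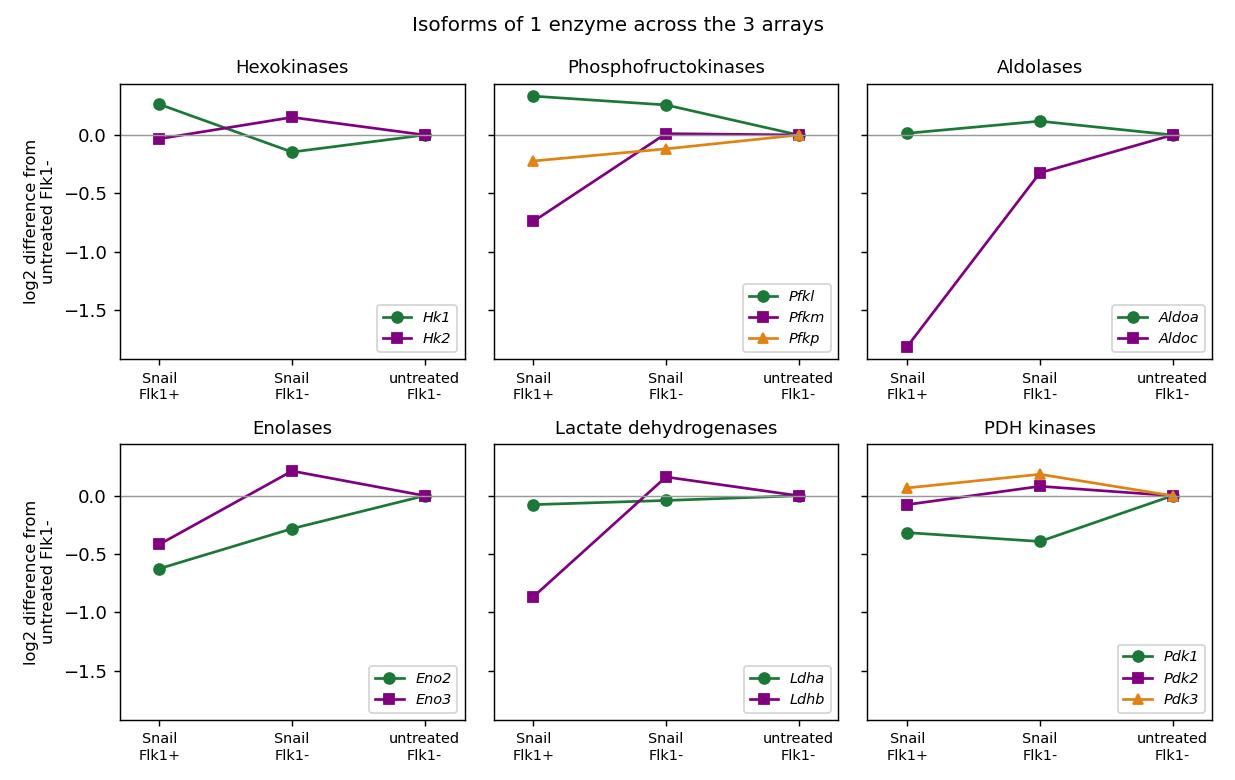
Log2 difference from untreated Flk1- cells for the isoforms of 6 enzymes (lines only join the values of 1 gene; untreated Flk1- is 0 by construction). Aldoc, Ldhb and Pfkm lie at -1.81, -0.87 and -0.74 in Flk1+ cells, Aldoa and Ldha near 0 and Pfkl lies at 0.33.

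Start regions are shown because Aldoc and Ldhb were at least 2-fold lower in Flk1+ than in Snail-induced Flk1- cells, and Ldha and Pgk1 were not. Whether hypoxia-inducible factors have a part in this was not tested. Windows from RefSeq (GRCm38.p6) run from 250 bases before to 50 after the annotated start, in the direction of the gene. Aldoc lies at chr11:78322823-78323122 on the plus strand, Ldhb at chr6:142507908-142508207 on the minus strand, Ldha at chr7:46845554-46845853 on the plus strand and Pgk1 at chrX:106186850-106187149 on the plus strand; for Aldoc and Ldha, which have 2 annotated starts each, the upstream one is shown. Capitals mark ACGTG or its reverse complement CACGT, the core to which hypoxia-inducible factors are known to bind, and CAGGTG or CACCTG, a sequence to which Snail is known to bind.
Aldoc: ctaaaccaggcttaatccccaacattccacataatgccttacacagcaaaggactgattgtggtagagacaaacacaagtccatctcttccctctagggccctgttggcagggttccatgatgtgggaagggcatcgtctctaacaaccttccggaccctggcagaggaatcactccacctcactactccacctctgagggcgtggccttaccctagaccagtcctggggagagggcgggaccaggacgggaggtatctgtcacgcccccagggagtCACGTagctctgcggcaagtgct
Ldhb: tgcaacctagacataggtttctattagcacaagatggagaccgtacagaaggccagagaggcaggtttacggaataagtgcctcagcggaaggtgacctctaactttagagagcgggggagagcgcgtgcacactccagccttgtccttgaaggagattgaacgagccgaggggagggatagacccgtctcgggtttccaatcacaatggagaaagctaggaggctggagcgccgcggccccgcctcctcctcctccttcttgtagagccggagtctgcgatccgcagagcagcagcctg
Ldha: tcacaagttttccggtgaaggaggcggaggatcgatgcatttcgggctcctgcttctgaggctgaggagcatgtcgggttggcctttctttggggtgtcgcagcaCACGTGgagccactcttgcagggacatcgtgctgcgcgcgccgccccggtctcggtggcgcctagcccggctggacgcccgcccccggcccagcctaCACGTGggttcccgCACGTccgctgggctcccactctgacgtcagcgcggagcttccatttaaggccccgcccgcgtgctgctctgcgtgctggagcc
Pgk1: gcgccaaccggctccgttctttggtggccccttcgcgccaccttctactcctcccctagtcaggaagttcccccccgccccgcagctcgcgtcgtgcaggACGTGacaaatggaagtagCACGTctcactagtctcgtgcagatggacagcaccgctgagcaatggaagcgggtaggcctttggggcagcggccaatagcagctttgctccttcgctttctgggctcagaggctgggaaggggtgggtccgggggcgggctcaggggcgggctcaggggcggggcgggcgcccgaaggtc
The Aldoc window held 1 match of the hypoxia core, 27 bases after the start, and the Ldhb window held 0. The Ldha window held 5, counting both strands, with pairs that overlap as CACGTG at 2 places, and the Pgk1 window held 2, with first bases at -150 and -131 from the start. None of the 4 windows held CAGGTG or CACCTG. The downstream Ldha window, not shown, held 1 match of that sequence and 0 of the hypoxia core, and the downstream Aldoc window held 0 of both. Over all 32851 windows of this length, 19.6% held the hypoxia core and 20.2% the Snail hexamer. Over the 49 windows of the 34 genes with an entry, the shares were 44.9% and 16.3%, with windows of 1 gene partly overlapping. The median GC content was 60.7% in these 49 windows and 52.7% in all, and in windows with at least 55% GC the hypoxia core was found in 25.4%. A match is a description of letters and not of binding.

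The bifunctional enzymes Pfkfb3 and Pfkfb4 set the level of fructose 2,6-bisphosphate, the strongest activator of phosphofructokinase. Pfkfb3 stood at 84.4 in Flk1+, 88.1 in Snail-induced Flk1- and 93.1 in untreated Flk1- cells. Pfkfb4 stood at 115 in Flk1+, 108 in Snail-induced Flk1- and 106 in untreated Flk1- cells. Both were within 1.09-fold in every comparison by their brightest probe sets, at low intensity.

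At the gate into mitochondria, pyruvate dehydrogenase makes acetyl-CoA, and the Pdk kinases switch it off. Its subunit gene Pdha1 stood at 2598 in Flk1+, 2746 in Snail-induced Flk1- and 2422 in untreated Flk1- cells. Pdhb, which encodes the other subunit of the same component, stood at 2664 in Flk1+, 3028 in Snail-induced Flk1- and 2970 in untreated Flk1- cells. By their brightest probe sets, both lay within 1.14-fold in every comparison. Between Flk1+ and Snail-induced Flk1- cells, the dimmer probe set differed by -0.45 for Pdha1 and by -0.41 for Pdhb. Pdk1, the hypoxia-inducible kinase, stood at 2529 in Flk1+, 2399 in Snail-induced Flk1- and 3151 in untreated Flk1- cells, 1.31-fold lower in Snail-induced Flk1- than in untreated Flk1- cells. Its 3 measured probe sets gave -0.39 to -0.02 for that comparison and -0.32 to 0.28 for Flk1+ against untreated Flk1- cells, so the direction of the last depends on the probe set. Pdk2, a widespread kinase isoform, stood at 41.2 in Flk1+, 47.1 in Snail-induced Flk1- and 44.0 in untreated Flk1- cells, and its largest fold was 1.12. Pdk3, a further isoform, stood at 746 in Flk1+, 810 in Snail-induced Flk1- and 712 in untreated Flk1- cells, and its largest fold was 1.14.

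In the pentose phosphate pathway Taldo1 and Rpia were lowest in Flk1+ cells, and Tkt and Pgd were not. Taldo1 encodes transaldolase, which passes short carbon units between sugar phosphates. It stood at 1039 in Flk1+, 1659 in Snail-induced Flk1- and 2065 in untreated Flk1- cells. This was 1.59-fold lower in Flk1+ than in Snail-induced Flk1- cells and 1.98-fold lower than in untreated Flk1- cells. The last value lies just inside 2-fold. Snail-induced Flk1- cells lay between the others, 1.24-fold below untreated Flk1- cells.

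Rpia, ribose 5-phosphate isomerase, stood at 229 in Flk1+, 389 in Snail-induced Flk1- and 337 in untreated Flk1- cells, 1.67-fold lower in Flk1+ than in Snail-induced Flk1- cells. Tkt, transketolase, the partner of transaldolase, stood at 11029 in Flk1+, 11634 in Snail-induced Flk1- and 10566 in untreated Flk1- cells. By this brightest probe set Tkt lay within 1.10-fold, while its dimmest gave 0.41 for Flk1+ over untreated Flk1- cells. Pgd, the second NADPH-producing enzyme of the oxidative branch, stood at 3483 in Flk1+, 2988 in Snail-induced Flk1- and 3012 in untreated Flk1- cells. Its 4 probe sets gave differences from 0.22 to 0.37 between Flk1+ and Snail-induced Flk1- cells, below 1.5-fold. Of the 31 genes, Taldo1 was, after Aldoc, the one furthest below its level in untreated Flk1- cells in the Flk1+ array. The window at its start, chr7:141391910-141392209 on the plus strand, is therefore printed. The window held 0 matches of either motif.
Taldo1: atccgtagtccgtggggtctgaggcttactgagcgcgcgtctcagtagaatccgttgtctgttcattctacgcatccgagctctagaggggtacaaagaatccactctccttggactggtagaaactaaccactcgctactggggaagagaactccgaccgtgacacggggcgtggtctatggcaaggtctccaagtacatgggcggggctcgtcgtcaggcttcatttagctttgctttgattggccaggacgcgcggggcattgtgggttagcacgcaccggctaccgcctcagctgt

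The hypoxia factors and sensors are described apart from the enzymes. Epas1 encodes HIF-2alpha, the hypoxia-inducible factor subunit prominent in endothelium, and was the only one of the 31 genes past 1.5-fold between the Flk1- arrays. It stood at 1788 in Flk1+, 915 in Snail-induced Flk1- and 519 in untreated Flk1- cells. Flk1+ cells were highest and untreated Flk1- cells lowest. The gene was 1.94-fold higher in Flk1+ than in Snail-induced Flk1- cells, and 1.75-fold higher in Snail-induced Flk1- than in untreated Flk1- cells. It was 3.40-fold higher in Flk1+ than in untreated Flk1- cells. Its dimmer probe set gave 66.8 in Flk1+, 50.8 in Snail-induced Flk1- and 36.1 in untreated Flk1- cells, with smaller differences of the same sign.

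Egln3 encodes the prolyl hydroxylase PHD3, itself a known hypoxia-inducible gene. It stood at 2052 in Flk1+, 740 in Snail-induced Flk1- and 718 in untreated Flk1- cells. It was 2.75-fold higher in Flk1+ than in Snail-induced Flk1- cells, a place above which 2.15% of measured genes lay, while the Flk1- arrays were within 1.03-fold of each other. The second probe set gave 1510 in Flk1+, 432 in Snail-induced Flk1- and 414 in untreated Flk1- cells. Of the 31 genes, Egln3 had the largest positive difference between Flk1+ and Snail-induced Flk1- cells. Its start window, chr12:54203825-54204124 on the minus strand, is therefore shown. It held 1 match of the hypoxia core, in capitals, with its first base at -229 from the start.
Egln3: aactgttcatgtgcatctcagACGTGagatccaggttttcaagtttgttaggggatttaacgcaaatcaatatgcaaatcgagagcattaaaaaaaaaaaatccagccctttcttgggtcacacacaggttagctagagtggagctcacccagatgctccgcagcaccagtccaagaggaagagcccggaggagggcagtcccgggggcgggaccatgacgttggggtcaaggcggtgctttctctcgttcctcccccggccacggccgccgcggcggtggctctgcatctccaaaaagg
Egln1, which encodes PHD2, the main sensor of oxygen in most cells, stood at 929 in Flk1+, 961 in Snail-induced Flk1- and 920 in untreated Flk1- cells, within 1.04-fold. Its dimmer probe set gave 238 in Flk1+, 201 in Snail-induced Flk1- and 255 in untreated Flk1- cells.

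Hif1a encodes HIF-1alpha, whose protein, rather than its RNA, is what oxygen chiefly controls. It stood at 5576 in Flk1+, 4201 in Snail-induced Flk1- and 4305 in untreated Flk1- cells. It was 1.33-fold higher in Flk1+ than in Snail-induced Flk1- cells, and its 4 probe sets gave 0.27 to 0.46 there. Against untreated Flk1- cells these probe sets gave 0.33 to 0.85. The largest came from a probe set at 1131 in Flk1+, 818 in Snail-induced Flk1- and 624 in untreated Flk1- cells. The place of Hif1a within 1.5-fold thus depends on the probe set. Bnip3, a mitophagy gene and target of hypoxia-inducible factors, stood at 2429 in Flk1+, 3237 in Snail-induced Flk1- and 3097 in untreated Flk1- cells, 1.33-fold lower in Flk1+ than in Snail-induced Flk1- cells.

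**Figure D3:**
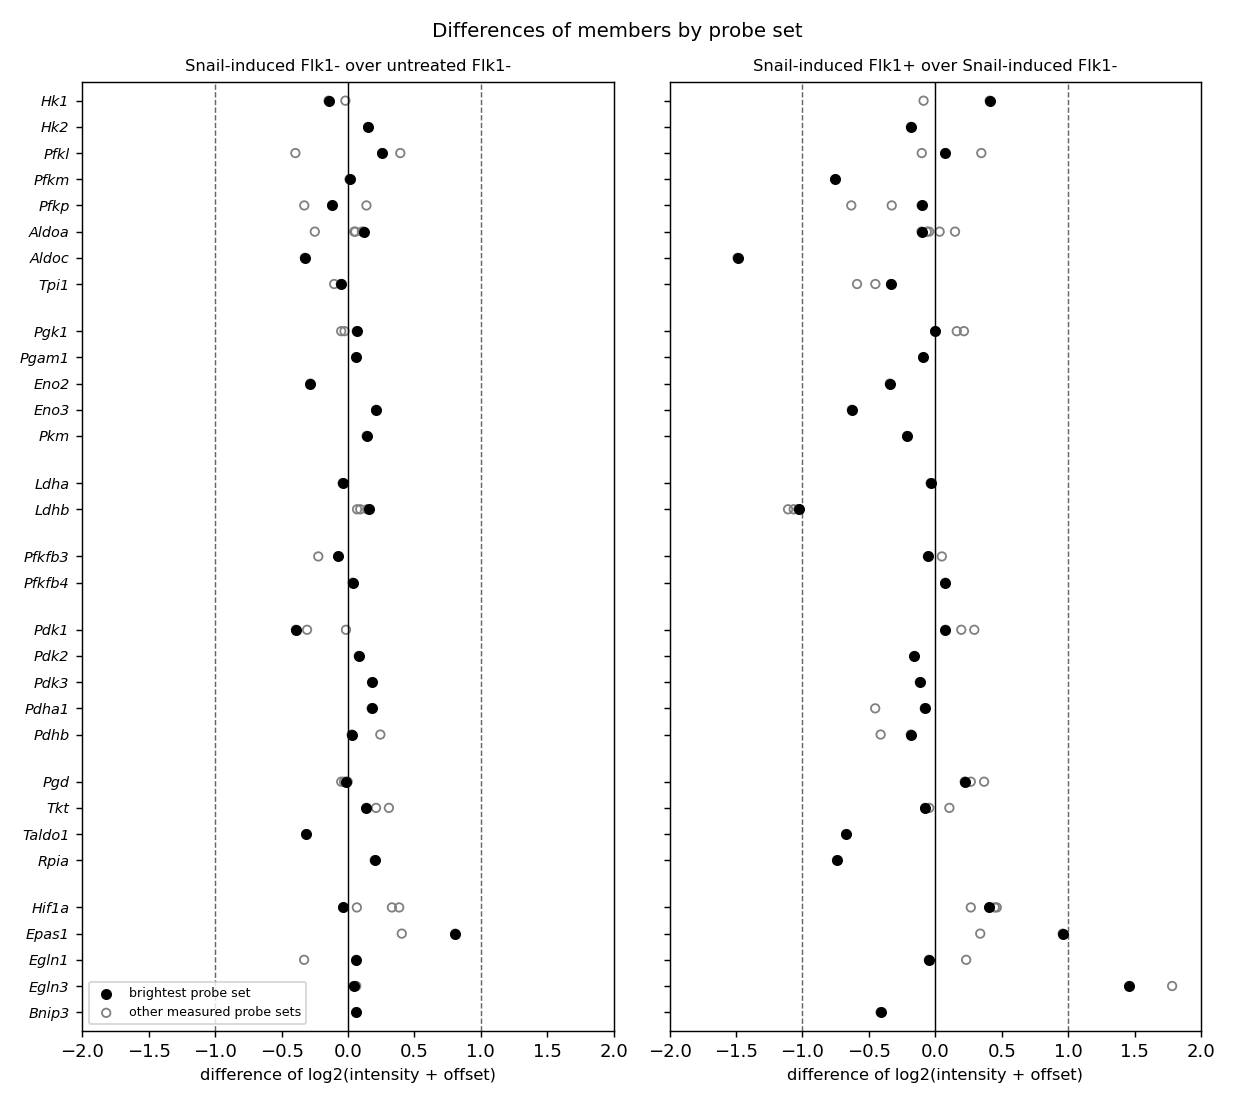
Log2 differences of the 31 genes for Snail-induced Flk1- over untreated Flk1- cells (left) and Flk1+ over Snail-induced Flk1- cells (right). Filled points are the brightest probe set and open points the other measured ones; dashed lines mark 2-fold. In the left panel all filled points lie between -0.39 and 0.81; in the right panel Aldoc, Ldhb and Egln3 pass the lines.

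Counts over the whole group are given beside the shares over all measured genes. Between Snail-induced Flk1- and untreated Flk1- cells, 0 of 31 were at least 2-fold higher and 0 lower, where 2.95% and 2.03% of all 13969 measured genes were. At 1.5-fold the counts were 1 higher, Epas1, and 0 lower, against 8.48% and 7.82% of all genes. The median difference was 0.06 for the 31 genes and 0.04 for all, and the median absolute difference was 0.12 and 0.23. In this and the next comparisons, all genes are the 13969, of which 11970 stood at or above the floor on every array. All 31 genes did, so these medians are not matched for intensity. Of the 2-fold calls over all genes 59.3% were higher, and 44.1% when each array was centred on its median.

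Between Flk1+ and Snail-induced Flk1- cells, 1 of 31 was at least 2-fold higher, Egln3, and 2 were lower, Aldoc and Ldhb, against 4.85% and 4.89% of all genes. At 1.5-fold, 2 were higher, Egln3 and Epas1, and 6 lower, namely Aldoc, Ldhb, Pfkm, Rpia, Taldo1 and Eno3, against 12.5% and 11.7%. All 6 of the lower genes are among the 26 measured pathway enzymes, and both of the higher ones are among the 5 hypoxia genes. Within 1.5-fold each class went both ways. Among the enzymes Hk1 differed by 0.41 and Tpi1 by -0.33, and among the hypoxia genes Hif1a by 0.41 and Bnip3 by -0.41. The median difference was -0.10 for the 31 genes and 0.00053 for all, and the median absolute difference was 0.18 and 0.30. Counts this small beside such shares are a description of the named genes, and nothing is read from them about the pathway as a whole.

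Between Flk1+ and untreated Flk1- cells, which is the sum of the other comparisons and shares their arrays, 2 of 31 were at least 2-fold higher, Epas1 and Egln3, and 1 lower, Aldoc, against 8.10% and 6.41% of all genes. At 1.5-fold the same 2 were higher, and 5 were lower, Aldoc, Taldo1, Ldhb, Pfkm and Eno2, against 16.7% and 14.1%. The median difference was -0.07 for the 31 genes and 0.01 for all, and the median absolute difference was 0.22 and 0.34.

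Without probe sets whose suffix (s, x or a) marks several transcripts, 21 genes are left, and Aldoc and Ldhb are not among them. Of the 21, 0 are at least 2-fold lower in Flk1+ than in Snail-induced Flk1- or in untreated Flk1- cells. Of the 12298 genes measured this way, 5.10% and 6.52% were, so this 0 is no result about the group.

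Other genes of the same pathways were read from lists that are no part of the 35. Of 33 further glycolysis and pyruvate genes, 24 were measured. Between Flk1+ and Snail-induced Flk1- cells, 0 of 24 were at least 2-fold higher and 2 lower, Gpd2 and Tigar, against 4.85% and 4.89% of all genes. Between Flk1+ and untreated Flk1- cells, 0 were higher and the same 2 lower, against 8.10% and 6.41%. Between the Flk1- arrays, 0 were higher and 1 lower, Fbp2, against 2.95% and 2.03%. Counts this small are near those shares and are no result about the list. Gpd2, the mitochondrial glycerol 3-phosphate dehydrogenase that carries electrons from cytoplasmic NADH into mitochondria, stood at 1058 in Flk1+, 2212 in Snail-induced Flk1- and 2521 in untreated Flk1- cells. It was 2.08-fold lower in Flk1+ than in Snail-induced Flk1- cells and 2.37-fold lower than in untreated Flk1- cells. Its 3 measured probe sets showed the same order. Tigar, a phosphatase that lowers fructose 2,6-bisphosphate and so favours the pentose phosphate pathway, stood at 62.1 in Flk1+, 149 in Snail-induced Flk1- and 187 in untreated Flk1- cells. It was 2.22-fold lower in Flk1+ than in Snail-induced Flk1- cells and 2.75-fold lower than in untreated Flk1- cells. Its other 2 measured probe sets gave smaller differences of the same sign in these comparisons. Fbp2, a gluconeogenic enzyme, was at 22.9 in Flk1+, 8.88 in Snail-induced Flk1- and 33.7 in untreated Flk1- cells, at least 1.32-fold lower in Snail-induced Flk1- than in untreated Flk1- cells; it is counted above by its log2 difference, and this bound would not pass 2-fold.

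Of 10 further pentose phosphate genes, 7 were measured and 0 were at least 2-fold apart in any comparison. Over all genes, the 2-fold shares ran from 2.03% to 8.10% by comparison and direction, so this 0 is no result about the list. H6pd, which runs the oxidative steps in the endoplasmic reticulum, was the only one past 1.5-fold, at 180 in Flk1+, 200 in Snail-induced Flk1- and 119 in untreated Flk1- cells, 1.63-fold higher in Snail-induced Flk1- than in untreated Flk1- cells.

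Genes known as targets or regulators of the hypoxia-inducible factors went in both directions. Of 34 measured genes of that list, 1 was at least 2-fold higher and 3 lower in Flk1+ than in Snail-induced Flk1- cells, against 4.85% and 4.89% of all genes. Against untreated Flk1- cells, 5 were higher and 6 lower, where 8.10% and 6.41% of all genes were, with a median of -0.16 against 0.01 for all genes. Between the Flk1- arrays 0 were at least 2-fold apart. Cited2, a transcriptional regulator that competes with the hypoxia factors for a coactivator, stood at 2292 in Flk1+, 1106 in Snail-induced Flk1- and 730 in untreated Flk1- cells, 3.11-fold higher in Flk1+ than in untreated Flk1- cells. Plod1, a lysyl hydroxylase of collagen, stood at 333 in Flk1+, 204 in Snail-induced Flk1- and 106 in untreated Flk1- cells, 2.97-fold higher in Flk1+ than in untreated Flk1- cells.

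The 6 lower genes against untreated Flk1- cells were Slc2a1, Slc2a3, Ndrg1, Adm, Bhlhe40 and Stc2. Slc2a1, the widespread glucose transporter, stood at 2250 in Flk1+, 4993 in Snail-induced Flk1- and 6898 in untreated Flk1- cells. Slc2a3, a further glucose transporter, stood at 2667 in Flk1+, 4711 in Snail-induced Flk1- and 6376 in untreated Flk1- cells, 2.39-fold lower in Flk1+ than in untreated Flk1- cells; it was named after its values were seen. Bhlhe40, a transcriptional repressor, stood at 161 in Flk1+, 335 in Snail-induced Flk1- and 437 in untreated Flk1- cells, and was 2.62-fold lower in Flk1+ than in untreated Flk1- cells. Stc2, a secreted glycoprotein, stood at 38.4 in Flk1+, 72.3 in Snail-induced Flk1- and 116 in untreated Flk1- cells, likewise 2.62-fold lower, with 1 of its 3 probe sets higher in Flk1+ than in Snail-induced Flk1- cells. Ndrg1, a stress-responsive gene, stood at 60.7 in Flk1+, 139 in Snail-induced Flk1- and 170 in untreated Flk1- cells, and was 2.56-fold lower in Flk1+ than in untreated Flk1- cells.

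A further set was picked after its values were seen, the hydroxylases that modify collagen, which use oxygen as the Egln enzymes do. P4ha1 and P4ha2, catalytic subunits of collagen prolyl hydroxylase, were 2.38-fold and 2.14-fold higher in Flk1+ than in untreated Flk1- cells, and the lysyl hydroxylase gene Plod2 was 1.87-fold higher. P4ha1 stood at 759 in Flk1+, 536 in Snail-induced Flk1- and 314 in untreated Flk1- cells. P4ha2 stood at 726 in Flk1+, 445 in Snail-induced Flk1- and 335 in untreated Flk1- cells. Plod2 stood at 937 in Flk1+, 699 in Snail-induced Flk1- and 497 in untreated Flk1- cells. Like Epas1, these genes and Plod1 were lowest in untreated Flk1- and highest in Flk1+ cells, although the dim second probe set of Plod1, at 34.4 in Flk1+, 27.9 in Snail-induced Flk1- and 39.8 in untreated Flk1- cells, did not show this.

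**Figure D4:**
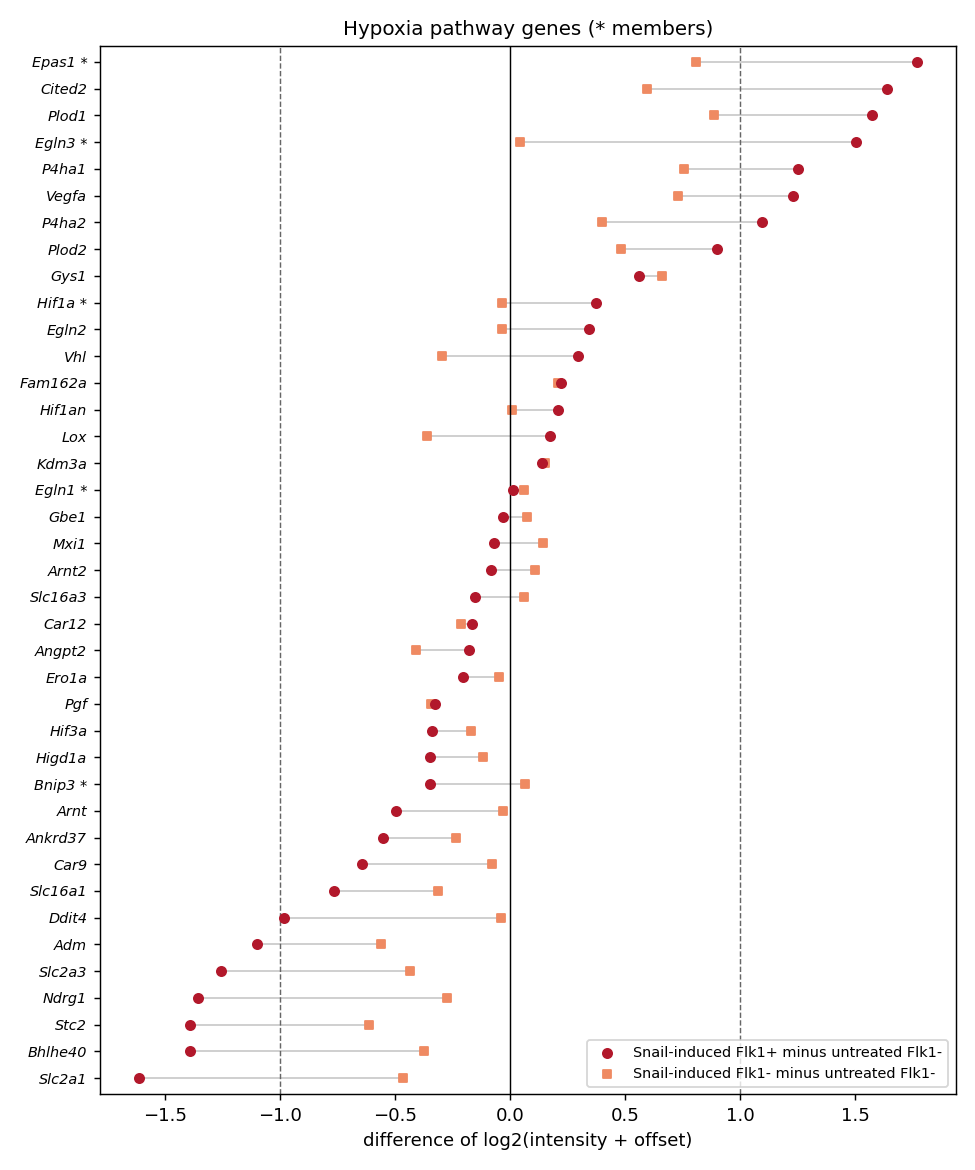
Log2 difference from untreated Flk1- cells for 39 measured hypoxia pathway genes, in Flk1+ (circles) and Snail-induced Flk1- cells (squares), sorted by the first. Asterisks mark Epas1, Egln3, Hif1a, Egln1 and Bnip3; dashed lines mark 2-fold. Epas1 is at the top with 1.77, Slc2a1 at the bottom with -1.61.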

How the data were processed

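RNA of 3 sorted populations was hybridised to Affymetrix arrays, 1 per group; per the labels' protocols, biotinylated cRNA was made from 2 ug of column-purified RNA. The values deposited by the authors are 1 linear intensity per probe set, from 0.5 to 18191; their software, summary method and scaling were not given in the sources used here. Of 45037 probe sets, 34945 had 1 symbol in the platform annotation, 932 several and 9160 none. Entrez IDs gave the current symbols in RefSeq's GRCm38.p6 annotation, where 204 probe sets had no match. Intensities were taken as deposited to log2(value + 9.53), with the 20th percentile of all values as offset. The probe set with the highest mean on that scale stood for a gene. A gene was measured if it reached the floor, the 40th percentile, on at least 1 array (13969 of 18193). A fold against a value under the floor is the brighter value over the floor. With 1 array per group, genes at least 2-fold or 1.5-fold apart were counted with no test, by their log2 differences except where said. The members and lists were chosen with earlier results of these data known. All members may be named; of other lists, at most 6 genes at least 2-fold apart, except where said. For 11 of the 139 genes in the lists no probe set was annotated to that gene alone. Counting was checked on simulated data. Python 3.11.15, numpy and pandas 2.3.3 were used. Alternatives were quantile normalisation, centring, the mean over probe sets, probe sets without suffix, other offsets, other floors and a threshold of 1.5-fold.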

Additional observations from a re-analysis of the deposited data

How the results depend on the processing

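The counts and medians of the 31 genes were recomputed under 8 alternatives, and the counts also at 1.5-fold. Of 78 recomputed counts and medians, 69 stayed within 1.5 times the count or 0.1 of the median. Those without a floor are among the 69 and could not differ, since all 31 genes stood above it on every array. The exceptions for Flk1+ over Snail-induced Flk1- cells were the lower genes, 1 with centring (Ldhb at -0.997), 0 without suffixed probe sets (21 genes left) and 6 at 1.5-fold, and the higher genes, 2 at 1.5-fold. For Flk1+ over untreated Flk1- cells, the lower genes numbered 2 with centring or quantile normalisation (Taldo1 at -1.05 and -1.07), 0 without suffixed probe sets and 5 at 1.5-fold. For Snail-induced Flk1- over untreated Flk1- cells, 1 gene was higher at 1.5-fold. With the mean over probe sets, Epas1 differed by 0.65 between Flk1+ and Snail-induced Flk1- cells. The median between the Flk1- arrays ran from -0.04 to 0.07, so it has no settled sign. No paired analysis was possible because each group has 1 array. Arrays limit precision by their number; Eno2, Pdk2, Pfkfb3 and Pfkfb4 lie nearest to the floor. Of the 9 genes past 1.5-fold, Aldoc, Eno2, Ldhb and Taldo1 have no value without suffixed probe sets, and Eno2 also drops to a largest fold of 1.39 with the larger offset and out with the higher floor; the others stayed past 1.5-fold under the alternatives of scaling, probe set, offset and floor.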

Other observations

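Of the 31 genes, 17 had more than 1 measured probe set, and in 10 of these all of them had 1 sign between Flk1+ and Snail-induced Flk1- cells. Pfkl is an example of the others: its probe sets gave 0.08, -0.10 and 0.35. Pklr, which encodes the liver and red cell pyruvate kinase, was picked, like the genes that follow, after its values were seen. It had an intensity of 1745 in Flk1+, 1369 in Snail-induced Flk1- and 2117 in untreated Flk1- cells, 1.54-fold lower in Snail-induced Flk1- than in untreated Flk1- cells. Its second probe set gave 118 in Flk1+, 123 in Snail-induced Flk1- and 155 in untreated Flk1- cells. Vegfa, which encodes the ligand of Flk1 and is a known hypoxia-inducible gene, stood at 225 in Flk1+, 156 in Snail-induced Flk1- and 90.3 in untreated Flk1- cells. Adm, another such gene, went the other way, at 37.3 in Flk1+, 58.5 in Snail-induced Flk1- and 90.6 in untreated Flk1- cells.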
